A study of Mus musculus with 64 samples.

Results

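The cytosolic ribosomal protein genes of the mouse were followed in 4 tissues of stressed and unstressed animals. Members were chosen by symbol: every gene named Rpl or Rps followed by a number, with an optional letter and number, together with Rplp0, Rplp1, Rplp2 and Rpsa, and without the symbols that carry a pseudogene suffix. This gave 88 genes of the 17199 present in any of the 4 expression tables, of which 51 belong to the large (60S) and 37 to the small (40S) subunit. The tables of prefrontal cortex, hippocampus, hypothalamus and whole blood held 88, 87, 87 and 85 of them, and 85 were present in all 4. RefSeq lists 82 of the 88 as protein-coding and 6 as pseudogenes (Rps3a2, Rps3a3, Rps12l1, Rps12l2, Rpl32p and Rps4l), so the symbol rule also takes in copies that are not parental genes.

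The animals were male BALB/c mice, an inbred strain, aged 28 weeks. One group went through Unpredictable Chronic Mild Stress (UCMS) for 9 weeks, a mouse paradigm used to model major depressive disorder, and the control group was left unstressed. RNA came from 8 control and 8 UCMS animals in each brain region and from 7 control and 9 UCMS animals in blood, 64 libraries in all, from tissue collected 14 to 16 hours after the last stressor, between ZT12.5 and ZT14.5. Libraries were directional and depleted of ribosomal RNA, and started from 100 ng of total RNA. The values are the authors' normalized levels, read here as log2 (the base is inferred from the values), so that a difference of 1 is a doubling. Depth is unknown, and the tables were normalized separately, so levels are compared only within a tissue.

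Ribosomal proteins assemble with ribosomal RNA into the large subunit, which forms peptide bonds, and the small subunit, which decodes messenger RNA. Cells make them in matched amounts, largely by holding back or releasing the translation of their messenger RNAs, most of which begin with a run of pyrimidines, the terminal oligopyrimidine (TOP) tract, read by LARP1 under the control of the kinase complex mTORC1. In neurons a share of these messenger RNAs lies in dendrites and axons. In blood, reticulocytes, the young red cells, still carry ribosomes that they lose as they mature.

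Runs of pyrimidines (C or T) were more frequent at the members' start sites than at all start sites, though most of the members' starts held none. RefSeq promoter entries (GRCm38.p6) were matched for 62 of the 82 coding members and gave 74 start sites. A run of at least 8 bases that were all C or T lay within 15 bases on either side of the start, on the gene's own strand, in 28 of these 74 starts (37.8%), against 12% of all 32851 starts in the same table. The share was 42.2% for the large and 31.0% for the small subunit, and 12% for mitochondrial ribosomal proteins. The 9 stretches of 30 bases around the start given here belong to members whose values are described further on, and show how far this run differs between them. The capitals mark the longest run of C and T, which reached 13 bases in Rpl13a and Rpl35a and 3 in Rpl26 and Rpl41. Such a run need not begin at the first base of the messenger RNA, as a TOP tract does. In Rps27l the run of 9 bases began at base -12 and lay before the annotated start, and in Rps2 it began at base 5. Where RefSeq gives several starts, the one with the longest run is shown; the other starts had runs of 4 and 5 bases in Rpl35a, 4 in Rps24 and 4 in Rps27l. Of the members named below that are not shown, Rps3a1 had a run of 2, Rps12 of 7, and Rpl22 of 5 and 4 at its pair of starts.
Rpl13a, chr7:45128731-45128760, minus strand: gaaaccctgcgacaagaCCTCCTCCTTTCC
Rpl35a, chr16:33056467-33056496, plus strand: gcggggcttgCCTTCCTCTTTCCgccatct
Rpl38, chr11:114668565-114668594, plus strand: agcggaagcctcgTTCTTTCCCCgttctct
Rpl22l1, chr3:28805493-28805522, plus strand: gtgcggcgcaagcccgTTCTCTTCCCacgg
Rps24, chr14:24490663-24490692, plus strand: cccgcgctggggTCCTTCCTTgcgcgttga
Rps27l, chr9:66946071-66946100, plus strand: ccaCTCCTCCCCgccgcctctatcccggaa
Rps2, chr17:24720048-24720077, plus strand: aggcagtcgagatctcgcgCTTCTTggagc
Rpl26, chr11:68901551-68901580, plus strand: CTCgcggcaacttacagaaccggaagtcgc
Rpl41, chr10:128549154-128549183, minus strand: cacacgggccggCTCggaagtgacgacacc

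The wider promoter, 250 bases before to 50 bases after the start, was searched on both strands for 3 fixed motifs. CCGGAAG, the core bound by ETS factors, was found in 36.5% of the members' starts, in 34.7% of those of mitochondrial ribosomal proteins and in 8.86% of all starts. AAGATGG, the core of the YY1 motif, was found in 16.2% against 6.34%, and TATAAA in 9.46% against 13.6%. A match describes letters only, and an annotated start can lie some bases away from the one used in these tissues.

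All 8 hypothalamic markers listed were in the hypothalamus table, and 4 of them (Avp, Oxt, Hcrt and Agrp) were absent from those of prefrontal cortex and hippocampus. The others were not confined to it: Trh, Pomc and Nkx2-1 were in the prefrontal cortex table, and Pmch and Pomc in that of hippocampus. All 5 cortical markers were in the tables of both prefrontal cortex and hippocampus, so their presence does not tell these regions apart. All 16 blood libraries had high hemoglobin. Among brain libraries, 2 of prefrontal cortex, 3 of hippocampus and 4 of hypothalamus, from 4 animals, had a Hbb-bs (beta globin) level above 12. The hippocampal library of UCMS animal S3 stood apart in the members themselves. For each region a count or a median of the members, not always both, is also given without these libraries. The lowest 10% of genes by mean level were left out of each test, which removed Rpl39l and Rpl3l in prefrontal cortex and Rpl39l in hippocampus, so 86, 86, 87 and 85 members were tested in prefrontal cortex, hippocampus, hypothalamus and blood.

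Under UCMS, no member passed the test in any tissue, and the differences were small against the spread between animals. The members' median log2 difference (UCMS minus control) was -0.047 in hypothalamus, -0.020 in prefrontal cortex and -0.018 in hippocampus, and it was 0.085 in blood. The standard error of a single member had a median of 0.054, 0.082, 0.065 and 0.14 in the same order. Both subunits had nearly the same median in each tissue: -0.047 (large) and -0.052 (small) in hypothalamus, and 0.088 and 0.084 in blood. Control and UCMS values overlapped for every member in every tissue. The share of all genes with overlapping groups is not given here, so this count has no background. In bulk tissue, fewer cells of a type and less RNA per cell cannot be told apart.

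**Figure D1:**
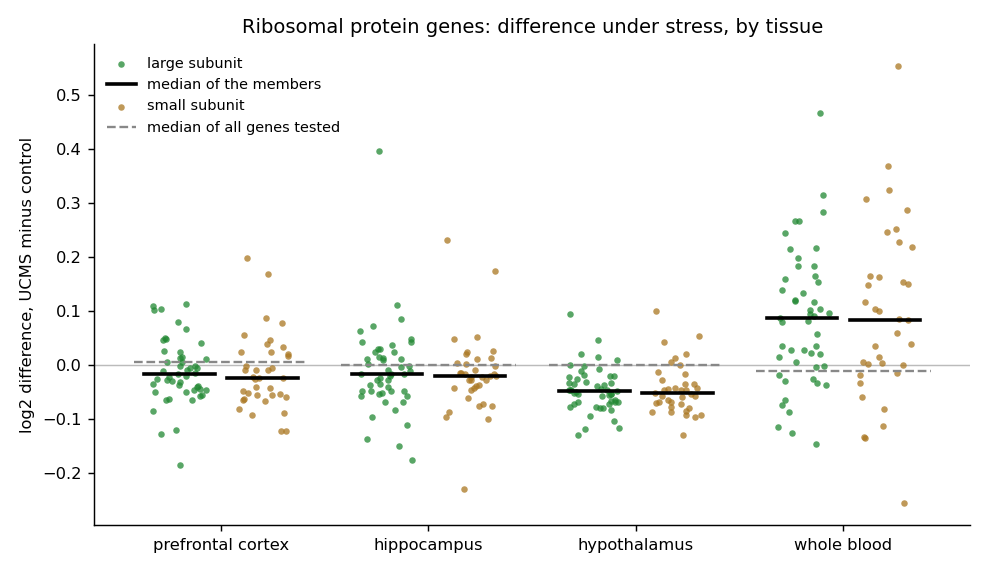
Log2 difference between UCMS and control (vertical axis) for each member tested, by tissue and subunit; thick lines are the median of each subunit and dashed lines the median of all genes tested. Most points lie below 0 in hypothalamus (74 of 87) and above 0 in whole blood (63 of 85), and the 2 subunits have similar medians in each tissue.

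In hypothalamus, the region that directs the hormonal stress response, 74 of 87 members (85.1%) had a lower mean in UCMS, where 49.5% of all 14539 genes tested did. The count was 44 of 50 for the large and 30 of 37 for the small subunit, and the median over all genes was 0.0008. The adjusted p, by limma with Benjamini-Hochberg adjustment over all genes, was under 0.05 for 0 members and for 0% of all genes, and the smallest was 1.0. At an unadjusted p under 0.05 there were 2 members, both lower (2.3%), against 1.17% of all genes lower at that threshold. They were Rpl38 and Rpl26.

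Rpl38, a large-subunit protein needed for translation of a set of Hox messenger RNAs in the embryo, had a lowest, median and highest level of 5.27, 5.46 and 5.62 in controls and 5.25, 5.37 and 5.43 in UCMS. All 8 UCMS libraries lay below the control median; 1 control library, at 5.27, lay near the bottom of the UCMS range. The log2 difference was -0.12 (SE 0.049, unadjusted p = 0.0327 by limma), a level 7.68% lower. Rpl26, which sits at the exit of the peptide tunnel and also binds p53 messenger RNA, was at 4.74, 4.93 and 5.07 in controls and 4.56, 4.81 and 4.95 in UCMS. Of its UCMS libraries 7 of 8 lay below the control median, and the groups overlapped between 4.74 and 4.95. The log2 difference was -0.13 (SE 0.061, unadjusted p = 0.0485 by limma).

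The small-subunit members with the smallest p in hypothalamus were Rps14 and Rps12. Rps14, whose loss from one chromosome underlies the anemia of the 5q- syndrome, was at 7.10, 7.20 and 7.42 in controls and 7.01, 7.14 and 7.19 in UCMS. All 8 UCMS libraries were below the control median, and the log2 difference was -0.10 (SE 0.046, unadjusted p = 0.0526 by limma). Rps12, known for its part in cell competition in flies, was at 6.06, 6.18 and 6.32 in controls and 5.86, 6.05 and 6.27 in UCMS, with 6 of 8 UCMS libraries below the control median. Its log2 difference was -0.13 (SE 0.062, unadjusted p = 0.0545 by limma). The groups overlapped for both genes.

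By role, the P stalk, which recruits the translation GTPases, was lower throughout in hypothalamus: Rplp0 by -0.07, Rplp1 by -0.07, Rplp2 by -0.07 and their anchor Rpl12 by -0.09 in log2, none of them past the test. Rplp0 was at 6.12 to 6.48 in the 4 hemoglobin-rich libraries and at 5.29 to 5.56 in the others, and without the former its difference was -0.029. Rpl5 and Rpl11, which carry 5S ribosomal RNA and can bind Mdm2 when free, were both at -0.05. Of the 9 proteins lining or surrounding the exit tunnel 6 were lower, from -0.13 in Rpl26 and -0.10 in Rpl39 to 0.02 in Rpl23a. Of the 18 genes mutated in Diamond-Blackfan anemia, a failure of red cell production, 15 were lower (median -0.046). Rps6, the substrate of S6 kinase, was at -0.06 and Rps27a, made as a fusion with ubiquitin, at -0.09. The highest of all members was Rps27l, a p53 target and paralog of Rps27, at 0.10.

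The hypothalamic count held without any one library (69 to 79 members lower). The median was -0.031 without UCMS animal S1, whose library had the lowest members of that region, and -0.072 (77 of 86 members lower, against 51.7% of all genes) without the hemoglobin-rich libraries. The number at an unadjusted p under 0.05 was less stable: it was 0 without control animal C3 or C5 or UCMS animal S1 or S2, 1 without C7, S4 or BS2, 4 without C2, S5 or S7, and 5 without S3. How many of all genes passed that threshold in each of these fits is not given here. Markers of other cells also lay to one side, none with an adjusted p under 0.05: all 5 meningeal markers tested were higher in UCMS (summed level of the 6 markers in the table, as log2, 6.0 to 7.71 in controls and 5.88 to 8.60 in UCMS), as were all 4 neuronal ones (9.79 to 10.1 and 9.93 to 10.3) and all 4 red cell ones (8.90 to 17.8 and 8.80 to 17.8). Their part in the members' difference was not tested.

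In prefrontal cortex, 57 of 86 members (66.3%) were lower in UCMS, against 48% of all genes, with 32 of 49 in the large and 25 of 37 in the small subunit. No member had an adjusted p under 0.05 (0% of all genes; smallest adjusted p by limma 0.987), and 0 members had an unadjusted p under 0.05, against 2.18% of all genes (1 member without control animal C7). Rpl22, which is also bound by a small RNA of the Epstein-Barr virus, was at 6.25, 6.43 and 6.58 in controls and 6.02, 6.30 and 6.47 in UCMS, a log2 difference of -0.12 (SE 0.079, unadjusted p = 0.147 by limma). Its paralog Rpl22l1 was at 5.0, 5.22 and 5.49 in controls and 4.36, 5.12 and 5.36 in UCMS, a difference of -0.18 (SE 0.12, unadjusted p = 0.143). The groups overlapped widely for both paralogs, with 6 of 8 UCMS libraries of Rpl22 and 5 of 8 of Rpl22l1 below the control median. Without UCMS animal S5, the lowest library, the difference of Rpl22l1 was -0.083.

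Rps3a1, a small-subunit protein close to the exit of messenger RNA, was at 6.45, 6.64 and 6.73 in control and 6.10, 6.55 and 6.71 in UCMS prefrontal cortex, a log2 difference of -0.12 (SE 0.077, unadjusted p = 0.130 by limma). Its copy Rps3a2 was at 9.76, 9.85 and 9.97 in controls and 9.37, 9.78 and 9.86 in UCMS, also -0.12 (SE 0.065, unadjusted p = 0.0770). Without UCMS animal S5 the differences were -0.066 (Rps3a1) and -0.071 (Rps3a2). In each of the pair 7 of 8 UCMS libraries lay below the control median, and the groups overlapped. The P stalk was at -0.03 (Rplp0) to 0.05 (Rpl12), and the 5S pair at -0.13 (Rpl5) and -0.05 (Rpl11). Of the exit tunnel proteins 8 of 9 were lower. Rps27, at 0.20, had the highest difference.

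The direction in prefrontal cortex rested on single animals. Without control animal C2, whose library held 84 of 86 members above their mean, 34 members were lower and the median was 0.012. Without UCMS animal S8 the median was 0.0095, without C6 or S4 it was -0.0025 and -0.0021, without S7 it was -0.042, and without C7, whose library held 1 of 86 members above the mean, it was -0.048. It was -0.033 without the hemoglobin-rich libraries. Choroid plexus markers (3 of 3 tested) were lower in UCMS, with a summed level of 5.50 to 11.9 in controls and 5.15 to 7.54 in UCMS. Meningeal markers were lower too (3 of 3, 5.27 to 6.68 and 5.0 to 6.95). So were astrocyte markers (4 of 4, 8.03 to 8.42 and 7.89 to 8.31) and myelin markers (6 of 6, 9.53 to 10.8 and 9.12 to 10.3). Neuronal markers (4 of 4, 9.78 to 10.6 and 10.2 to 10.7) and red cell markers (4 of 4, 8.58 to 17.6 and 8.55 to 17.5) were higher. These directions are those of each gene's mean difference. The median summed level ran the other way for myelin (9.98 in controls and 10.12 in UCMS) and red cell markers (9.72 and 9.68). The part of the markers was not tested.

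In hippocampus, 56 of 86 members (65.1%) were lower in UCMS, against 49.8% of all genes, 30 of 49 in the large and 26 of 37 in the small subunit. No adjusted p was under 0.05 (0% of all genes; smallest by limma 0.990). The one member at an unadjusted p under 0.05 was lower (1.16%, against 1.28% of all genes). It was Rps27l, at 4.43, 4.54 and 4.76 in controls and 3.85, 4.39 and 4.56 in UCMS. Of its UCMS libraries 7 of 8 lay below the control median, and the groups overlapped between 4.43 and 4.56. The log2 difference was -0.23 (SE 0.083, unadjusted p = 0.0139), a level 14.6% lower, and without UCMS animal S3, the lowest library, it was -0.16 (unadjusted p = 0.0132).

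Next in the small subunit was Rps3a3, and in the large subunit the smallest p belonged to Rpl22 and Rpl13a. Rps3a3, a copy of Rps3a1, was at 8.35, 8.45 and 8.53 in controls and 8.26, 8.35 and 8.49 in UCMS (log2 difference -0.09, SE 0.042, unadjusted p = 0.0541 by limma). Rpl22 was at 5.80, 5.94 and 6.19 in controls and 5.64, 5.75 and 6.10 in UCMS (-0.14, SE 0.078, unadjusted p = 0.101). Rpl13a, part of the complex that silences inflammatory messenger RNAs after interferon, was at 7.02, 7.06 and 7.14 in controls and 6.94, 7.02 and 7.09 in UCMS (-0.06, SE 0.035, unadjusted p = 0.121). In each of the 3, 6 of 8 UCMS libraries lay below the control median and the groups overlapped. The P stalk was slightly higher in all 4 members (0.03 to 0.07, with Rplp0 at 0.10 without the hemoglobin-rich libraries), while Rpl5 (-0.10) and Rpl11 (-0.05) were lower. For the stalk, the library of UCMS animal S3 was the highest of all in Rplp1 (8.293, the next 7.847) and Rpl12 (5.409, the next 5.265). Among UCMS libraries it was second to S7 in Rplp0 (5.839 and 6.249) and Rplp2 (6.715 and 6.777). The stalk's differences without S3 are not given here. Rpl29 had the highest difference, 0.40, with an SE of 0.36.

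The library of S3 carried much of the hippocampal spread. Its members had a median deviation of 0.20 from each gene's mean, 0.16 in the large and 0.26 in the small subunit, with 60 of 86 above the mean. Without it, 77 of 86 members were lower in UCMS (89.5%, against 49.7% of all genes), the median was -0.041, and 4 members were lower at an unadjusted p under 0.05 (4.65%, against 1.91%). Without BS2 the median was -0.029, and without S4, S5 or S8 it was -0.0069, -0.0063 and -0.0050. The number at an unadjusted p under 0.05 was 2 without C8 or S4, 3 without S5 or S7, and 2 without the hemoglobin-rich libraries. For these fits the share of all genes is not given here. Choroid plexus markers (3 of 3) were lower in UCMS (summed level of 5.73 to 12.3 in controls and 5.85 to 12.8 in UCMS), as were meningeal (4 of 4; 6.75 to 7.58 and 6.32 to 7.77), red cell (4 of 4; 8.86 to 17.6 and 8.92 to 17.6) and reticulocyte ones (3 of 3; 5.90 to 10.7 and 5.72 to 10.96). Platelet (2 of 2) and proliferation markers (2 of 2) were lower too, and microglial ones (6 of 6, 8.54 to 8.79 and 8.65 to 9.03) higher. These directions are those of each gene's mean difference. The median summed level was instead higher in UCMS for reticulocyte (5.99 in controls and 6.02 in UCMS), platelet (4.56 and 4.62) and proliferation markers (5.83 and 5.88). The part of the markers was not tested.

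Over the mean of the 3 brain regions, which has 1 value for each of 16 animals, 67 of 86 members (77.9%) were lower in UCMS, against 49% of 13517 genes, with a median of -0.028. No member passed at an adjusted p under 0.05 (0% of all genes; smallest by limma 0.959). At an unadjusted p under 0.05 there were 5 members, all lower (5.81%, against 2.13% of all genes): Rps3a2, Rps24, Rpl26, Rpl22l1 and Rps3a3. Of the 86, 44 (51.2%, against 17.8% of all genes) were lower in all 3 regions, 17 in 2, 21 in 1 and 4 in none. Those 4 were Rpl36a, Rps18, Rps26 and Rps27. The regions share their animals, so these counts are not 3 separate tests.

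Rps3a2 had brain means of 9.99, 10.06 and 10.12 in controls and 9.87, 9.95 and 10.03 in UCMS. All 8 UCMS animals lay below the control median and only the top of their range reached the bottom of the controls' (log2 difference -0.10, SE 0.029, unadjusted p = 0.00372 by limma). Rps24, a small-subunit protein mutated in Diamond-Blackfan anemia, was at 5.87, 5.96 and 5.99 in controls and 5.80, 5.87 and 5.98 in UCMS (-0.07, SE 0.031, unadjusted p = 0.0283). Rpl26 was at 4.66, 4.78 and 4.85 against 4.56, 4.65 and 4.82 (-0.10, SE 0.040, unadjusted p = 0.0287), and the controls' and UCMS ranges of both genes overlapped. Without the hemoglobin-rich libraries, 78 members (90.7%, against 49.6% of all genes) were lower, and the median was -0.054. In that fit 14 members were lower at an unadjusted p under 0.05 (16.3%, against 3.34% of all genes), none at an adjusted p under 0.05, and Rps24 was at -0.11. The median was -0.016 without S1, -0.017 without S4 and -0.017 without S8. The number at an unadjusted p under 0.05 was 1 without S8, 2 without C2 or S1, 3 without C4, C5, C6, S2 or S5, and 12 without S7. Without the members annotated as pseudogenes it was 3. The shares of all genes in the fits without 1 animal are not given here, so these counts cannot be set against them.

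Whether the UCMS difference itself differed between regions was tested on the differences within each animal. The adjusted p was under 0.05 for 0 members and 0% of genes in all 3 comparisons. Hippocampus minus prefrontal cortex gave 0 members at an unadjusted p under 0.05 (1.61% of all genes), and hypothalamus minus prefrontal cortex gave 0 (2.43%). Hypothalamus minus hippocampus gave 1 (1.16%, against 2.26%), Rps27l, whose differences of 0.10 and -0.23 were 0.33 apart (SE 0.12, unadjusted p = 0.0131, adjusted p = 1.0 by limma). The members' median difference between regions was -0.032 for hypothalamus minus prefrontal cortex and -0.029 for hypothalamus minus hippocampus.

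In whole blood the members lay on the other side: 63 of 85 (74.1%) were higher in UCMS, against 48.5% of 7947 genes, 36 of 49 in the large and 27 of 36 in the small subunit. No adjusted p was under 0.05 (0% of all genes; smallest 0.455 among members and 0.240 among all genes, by limma). At an unadjusted p under 0.05 there were 5 members, all higher (5.88%), where 6.48% of all genes were higher at that threshold: Rps2, Rpl41, Rps29, Rpl35a and Rps12l2. The members' share at that threshold was close to that of all genes. Of the 85 members, 34 (40%, against 13.7% of all genes tested in the 4 tables) were lower in all 3 brain regions and higher in blood.

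Rps2, which lies at the entry of messenger RNA into the small subunit, was at 4.25, 4.48 and 4.51 in control blood and 4.49, 4.72 and 5.12 in UCMS. All 9 UCMS libraries were above the control median, and the ranges met only between 4.49 and 4.51. The log2 difference was 0.31 (SE 0.12, unadjusted p = 0.0199, adjusted p = 0.455 by limma), a level 23.8% higher. Rps29, a zinc-binding small-subunit protein and a Diamond-Blackfan anemia gene, was at 2.51, 3.09 and 3.53 in controls and 2.90, 3.96 and 4.20 in UCMS. Its UCMS values fell apart into a lower and an upper set, with 7 of 9 above the control median. The difference was 0.55 (SE 0.23, unadjusted p = 0.0231), or 46.8%.

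Rpl41, the smallest ribosomal protein, was at 4.90, 5.71 and 5.94 in control blood and 5.42, 6.14 and 6.36 in UCMS (log2 difference 0.47, SE 0.19, unadjusted p = 0.0215 by limma). Rpl35a, another Diamond-Blackfan anemia gene, was at 4.05, 4.36 and 4.73 in controls and 4.34, 4.77 and 4.89 in UCMS (0.31, SE 0.13, unadjusted p = 0.0243). For Rpl41 7 and for Rpl35a 8 of 9 UCMS libraries were above the control median, and the ranges of both overlapped. The P stalk was higher in all 4 members, from 0.08 in Rpl12 to 0.27 in Rplp0, as were Rpl11 (0.22) and Rpl5 (0.06). Of the Diamond-Blackfan anemia genes 11 of 18 were higher, with Rps19, the one most often mutated, at 0.22.

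**Figure D2:**
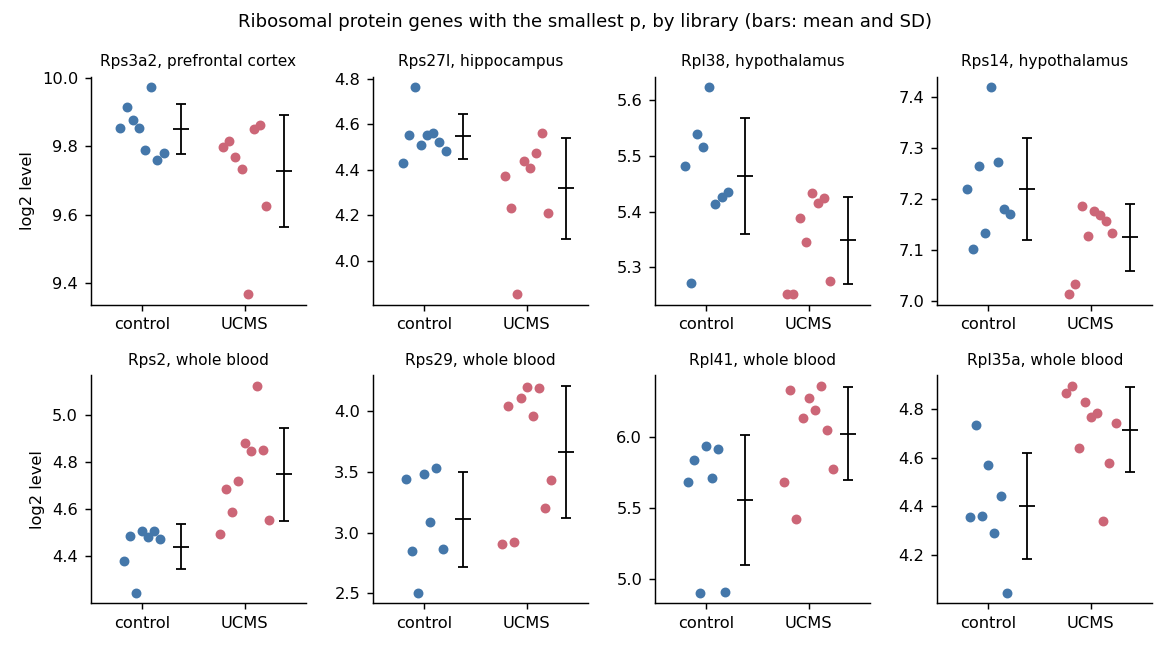
Log2 level of 8 named member and tissue pairs in each library (points), for control and UCMS, with the group mean and SD as bars; each panel has its own vertical axis, which does not start at 0. The control and UCMS points overlap in every panel, least for Rps2 in whole blood (4.49 to 4.51).

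By each gene's mean difference, blood cell markers also lay to one side, none with an adjusted p under 0.05. All 6 reticulocyte markers in the table were higher in UCMS (summed level 11.8 to 12.498 in controls and 12.03 to 12.8 in UCMS; Ahsp is not in the table), with Tfrc, the transferrin receptor, at 0.75 (unadjusted p = 0.00639 by limma). All 4 proliferation markers tested were higher (5.26 to 6.20 and 5.80 to 6.81), with Mki67 at 0.61 (unadjusted p = 0.00626). All 8 platelet markers were lower (10.8 to 11.4 and 9.64 to 11.2), as were all 6 neutrophil markers (8.29 to 9.46 and 8.06 to 9.11) and 7 of 8 T cell markers (6.39 to 7.20 and 6.50 to 7.10). B cell markers split 3 to 3. The median summed level was nearly the same in control and UCMS blood for reticulocyte (12.10 and 12.10) and neutrophil markers (8.55 and 8.56). It was 5.81 and 6.07 for proliferation, 11.17 and 10.70 for platelet, and 7.03 and 6.80 for T cell markers. The part of these markers in the higher ribosomal protein levels was not tested. The members' median was 0.052 without control animal C6, whose library was the lowest, and the number of lower members, 22 with all libraries, was 13 without C2 and 14 without C4. The number at an unadjusted p under 0.05 was 9 without C2, 2 without C8 and 8 without S8. Shares of all genes in these fits are not given here, so the counts have no background.

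Genes of the same pathway did not share one direction. Beside the counts given here, 49.5% of all genes tested were lower in hypothalamus, 48% in prefrontal cortex, 49.8% in hippocampus and 51.4% in blood. The translation factors whose messenger RNAs carry a TOP tract were lower for 13 of 17 in hypothalamus (median -0.026), 11 of 17 in prefrontal cortex, 10 of 17 in hippocampus and 9 of 17 in blood. Elongation factor Eef1a1 was at -0.27 in blood (unadjusted p = 0.0479 by limma) and initiation factor subunit Eif3h at -0.30 (unadjusted p = 0.0339), where most ribosomal protein genes were higher. Of all genes in blood, 4.33% were lower at an unadjusted p under 0.05. Of 34 ribosome biogenesis factors 19 were higher in hypothalamus, 19 in hippocampus and 20 in prefrontal cortex. The mTORC1 and LARP1 list was higher for 13 of 17 genes in prefrontal cortex (median 0.070), 11 of 16 in hippocampus (0.058) and 10 of 15 in hypothalamus (0.032), and 6 of 12 were higher in blood. In the brain mean Rptor was at 0.080 (unadjusted p = 0.0174 by limma), Mtor at 0.076 (0.0218) and Larp1 at 0.062 (0.0423). Of all genes in the brain mean, 1.49% were higher at an unadjusted p under 0.05. None of the pathway genes named here had an adjusted p under 0.05. Mitochondrial ribosomal proteins, which build a separate ribosome, were higher for 55 of 77 in prefrontal cortex (median 0.049), lower for 47 in hippocampus and 46 in hypothalamus, and lower for 16 of 27 in blood (-0.080).

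Members varied together between libraries. After removing group means, the median Pearson r over pairs of members across 16 libraries was 0.30 in hypothalamus, 0.46 in prefrontal cortex, 0.25 in hippocampus and 0.35 in blood, while over pairs of other genes it was 0.032, 0.006, 0.014 and -0.005, in the same order. Pairs from different subunits were as close (0.31, 0.47, 0.26 and 0.36) as pairs within the large (0.29, 0.46, 0.25 and 0.26) or small subunit (0.32, 0.46, 0.24 and 0.47), except that blood had its highest value among small-subunit pairs. Libraries share their normalization and RNA quality, so these are descriptions with no test. The members closest to the rest were Rpl15 in prefrontal cortex (median r 0.65 with the other members), Rplp1 in hippocampus (0.53), Rpl13 in hypothalamus (0.52) and Rps15a in blood (0.60). Without S3 the hippocampal median over member pairs was 0.20, and that of Rplp1 0.38. Without the hemoglobin-rich libraries the medians were 0.37 in hypothalamus, 0.49 in prefrontal cortex and 0.28 in hippocampus. Rps27l in hippocampus (-0.45, and -0.25 without S3) and Rps2 in blood (-0.43), both named above for their small p, ran against the family. Of the other blood members named for their p, Rps29 was at -0.33, Rpl41 at -0.19 and Rps12l2 at -0.02, and Rpl35a at 0.39. In hippocampus Rps3a2 (-0.44) and Rpl22l1 (-0.40) were also negative with all libraries.

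The spread between animals was larger than the UCMS difference. In prefrontal cortex the library of C2 had its members at a median of 0.24 above their means, against -0.19 in C7, both controls. In the library of C2 the TOP translation factors were also high (0.16), while ribosome biogenesis factors (-0.049), mitochondrial ribosomal proteins (-0.043) and all genes (-0.032) were not. In hypothalamus the members were highest in C5 (0.11, 72 of 87 above their mean) and lowest in S1 (-0.16, 8 of 87). In blood they were highest in S1 (0.27, 75 of 85) and lowest in C6 (-0.25, 5 of 85). The same animal, S1, thus had the lowest hypothalamic and the highest blood members.

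**Figure D3:**
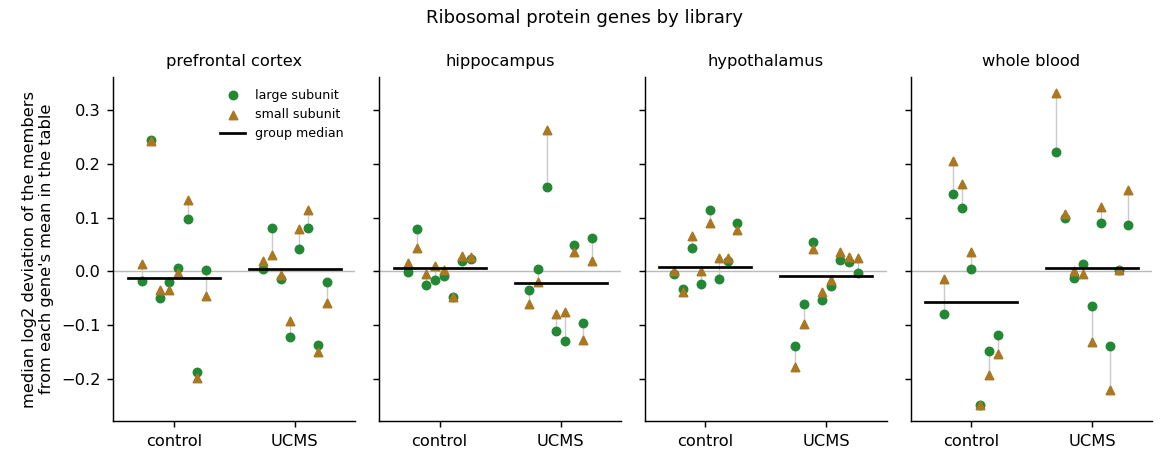
Median over large-subunit (circles) and small-subunit members (triangles) of the log2 deviation from each gene's mean in its table, 1 pair of linked points per library. The black line is the median, over the libraries of a group, of the median deviation of all members. The 2 subunits lie close together in nearly every library, the hippocampal library at the top (0.16 and 0.26) being S3, and control and UCMS libraries overlap in all tissues.

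A few members varied far more than the rest, and did so by animal. The SD within groups had a median of 0.11 in hypothalamus, 0.16 in prefrontal cortex, 0.13 in hippocampus and 0.24 in blood, but Rpl29, Rps18 and Rps27 were among the 4 most variable members in all 3 brain regions, with an SD of up to 1.26 for any member (Rpl39l in hypothalamus). These 3 were singled out after their values were seen. Rps18 is a protein of the small subunit's head, Rps27 a zinc-binding one and Rpl29 a large-subunit protein that vertebrate cells can live without. The same 5 animals were lowest for each gene: controls C3, C4 and C6 and UCMS animals S4 and S5. Their brain mean of Rps18 was 3.49 to 3.69, against 4.42 to 5.28 in the other 11 animals (5 control, 6 UCMS). For Rpl29 the ranges were 3.37 to 3.62 and 4.11 to 5.42, and for Rps27 4.96 to 5.14 and 5.54 to 6.68.

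Low and high levels were shared by the regions of an animal. In C8, Rps18 was at 5.44 in hypothalamus, 4.97 in prefrontal cortex and 5.42 in hippocampus, and in S4 it was at 3.85, 3.18 and 3.44. Over all 16 animals the 86 members had a median Pearson r between regions, after removing group means, of 0.18 (prefrontal cortex and hippocampus), 0.24 (hippocampus and hypothalamus) and 0.045 (prefrontal cortex and hypothalamus). These carry no test. In blood, Rps18 stayed between 3.83 and 4.62. Hemoglobin did not follow this order throughout. In the 5 lowest animals Hbb-bs was at 6.55 to 9.63 in prefrontal cortex, 6.12 to 9.45 in hippocampus and 5.33 to 8.20 in hypothalamus. The libraries above 12 (14.025 to 14.568) came from C1, C7, S7 and BS2, none of them among the 5. Apart from those libraries, Hbb-bs reached at most 6.07, 5.55 and 5.07 in the same regions of the other animals. The part of hemoglobin in the levels of the 3 genes was not tested.

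**Figure D4:**
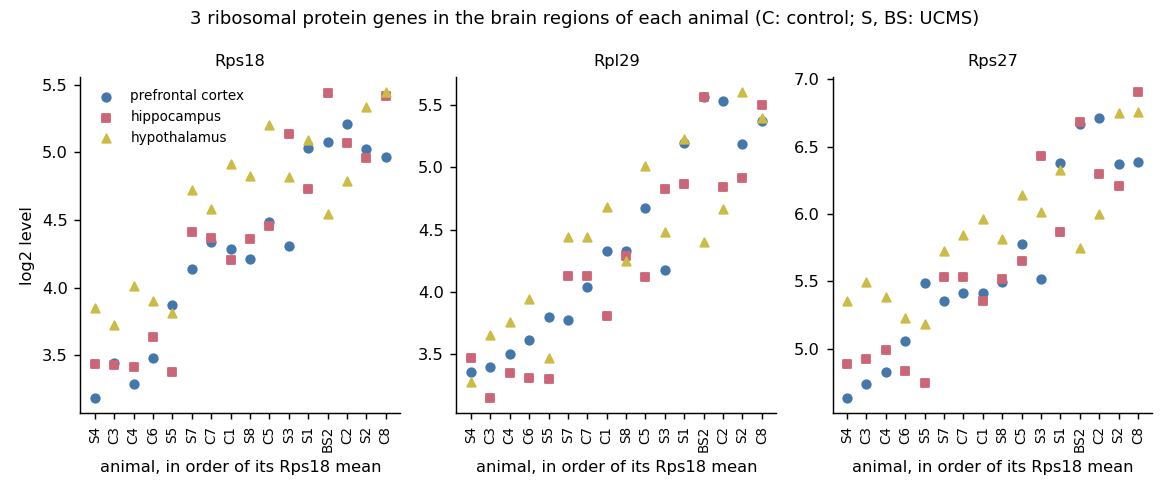
Log2 level of Rps18, Rpl29 and Rps27 in the 3 brain regions (markers) of each of 16 animals (horizontal axis, in order of the Rps18 brain mean); C marks control and S or BS marks UCMS animals, and the vertical axes do not start at 0. Animals S4, C3, C4, C6 and S5 are lowest for all 3 genes in the regions' mean, and both groups occur at both ends.

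Ribosomal protein genes have many processed copies in the genome. Pseudogene symbols of the family, 123 in any table, leaned to the same side as the members, but less so. They were lower for 64 of 98 tested in hypothalamus (median -0.024), 59 of 102 in prefrontal cortex and 55 of 97 in hippocampus. In blood 57 of 84 were higher (0.066). In the same order, the shares of all genes were 49.5%, 48% and 49.8% lower and 48.5% higher. Those of the members were 85.1%, 66.3%, 65.1% and 74.1%. How reads that match a copy and its parent were assigned is not given in the sources used here, so the values of such pairs are uncertain. Counting the members annotated as pseudogenes, 123 copies had a parent in the prefrontal cortex table and 91 in that of blood. Copies with at least 95% identity to the parent's transcript were listed above the parent by a median log2 of 2.57 in prefrontal cortex (81 copies), 2.37 in hippocampus, 2.49 in hypothalamus and 2.40 in blood, and those under 95% below it in the brain regions (-2.33 in prefrontal cortex, 35 copies). Whether the values are divided by length is not stated, so these are differences between listed values and not between transcript numbers; the copies' length was a median 0.75 of the parent's in prefrontal cortex.

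Copies also varied with their parents. Over 16 libraries the median r of a copy with its own parent was 0.42 in hypothalamus, 0.58 in prefrontal cortex, 0.39 in hippocampus and 0.65 in blood, against 0.12, 0.34, 0.17 and 0.28 with other parents. The copies share library and depth with their parents, and near-identical sequences can share reads.

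**Figure D5:**
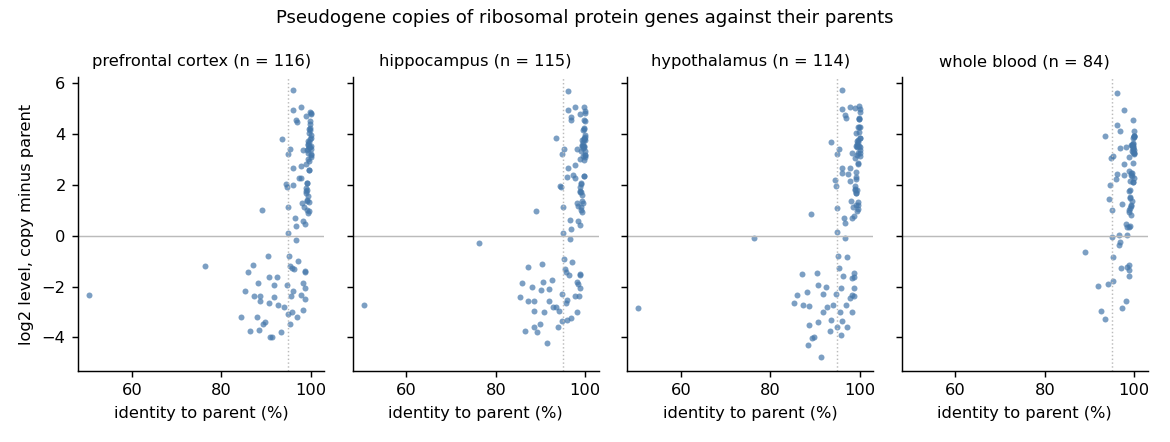
Listed log2 level of each pseudogene copy minus that of its parent (vertical axis) against the identity of the copy to the parent's transcript in percent (horizontal axis), by tissue; the dotted line marks 95%. Copies right of the line are mostly above 0 (medians of 2.37 to 2.57) and, in the brain regions, those left of it mostly below.

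Rps3a1 shows this at the level of bases. The gene (chr3:86137940-86142702, minus strand, GRCm38) has 6 exons and a transcript of 977 bases, whereas Rps3a2 (chr14:88123017-88123808, minus strand) and Rps3a3 (chr13:108670603-108671397, plus strand) are single exons of 792 and 795 bases. By GENCODE M21 sequences, Rps3a2 is 4 edits (99.5% identity) and Rps3a3 9 edits (98.9%) from the parent. The stretches of 60 bases given here, counted from the first base of the parent's coding sequence, each hold 2 of the differences between copy and parent, marked by capitals; the others lie elsewhere.
Rps3a1, coding bases 609 to 668: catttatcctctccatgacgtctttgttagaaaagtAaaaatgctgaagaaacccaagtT
Rps3a2, the same stretch: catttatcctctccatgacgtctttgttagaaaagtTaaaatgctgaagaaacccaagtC
Rps3a1, coding bases 201 to 260: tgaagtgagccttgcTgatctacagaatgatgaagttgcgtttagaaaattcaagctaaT
Rps3a3, the same stretch: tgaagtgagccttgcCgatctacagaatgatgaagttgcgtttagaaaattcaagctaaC

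A short read that covers none of the differing bases matches copy and parent alike. The mean listed level of Rps3a1 was 6.78 in hypothalamus, 6.55 in prefrontal cortex, 6.48 in hippocampus and 5.99 in blood. That of Rps3a2 was 10.27, 9.79, 9.94 and 9.32, and that of Rps3a3 8.74, 8.24, 8.41 and 7.74. Their UCMS differences had the same sign in each tissue: -0.12, -0.12 and -0.09 in prefrontal cortex and 0.29, 0.17 and 0.23 in blood, for Rps3a1, Rps3a2 and Rps3a3. In blood the copies had an r of 0.94 (Rps3a2) and 0.87 (Rps3a3) with the parent over 16 libraries. The r over the brain means is not given here, and the blood values do not stand for it. In the brain mean, control animal C8 was the highest control for Rps3a1 (6.75) and the lowest for Rps3a2 (9.99). Because the sequences are nearly identical, the place of Rps3a2 and Rps3a3 among the brain-mean members with the smallest p cannot be told apart from a difference in Rps3a1 itself.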

How the data were processed

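The members and gene lists were chosen with earlier results of these data known. The authors deposited 1 table of normalized levels per tissue, which were read as log2 values; base and quantile-like scaling are inferred from the values, the build is GRCm38.p4 per the submitters' processing notes, and aligner, counter, annotation, strand setting and the handling of reads with several matches were not given in the sources used here. Depth is unknown, and no batch is labelled. UCMS was compared with control in each table with limma 3.58.1 (R 4.3.3; eBayes with trend, two-sided), leaving out the lowest 10% of genes by mean and adjusting by Benjamini-Hochberg over all genes tested; brain means and differences between regions used the values of each animal. Each library is a separate animal within its tissue. Medians and counts over members carry no test. Described by name in each tissue are the 2 large- and 2 small-subunit members with the smallest unadjusted p, the members of fixed role lists and the extremes. A summed marker level is the log2 of the sum of a list's genes in a library. Copies were aligned to parents with edlib 1.3.9.post1. The fits were tested on simulated data. Alternatives (filters, prior variance, re-centred libraries, a replicate block, libraries left out) are described at the end.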

Additional observations from a re-analysis of the deposited data

Results flagged for a closer look

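In 3 of 60 groups examined, 1 library lay far from the rest (a gap above Dixon's critical value); chance gives about 1 in 20. Rpl22l1 in the prefrontal cortex of UCMS animal S5 was at 4.361, with the nearest other UCMS library at 4.932. Rps27l in the hippocampus of control animal C3 was at 4.762, with the nearest control at 4.561. The large-subunit minus the small-subunit median deviation in the hippocampus of control animal C2 was 0.035, with the nearest control at -0.00013. None of these was explained by a label.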

How the results depend on the processing

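Across 1176 alternative values, no member reached an adjusted p under 0.05 in any table (smallest 0.306), and none of the 20 named gene results changed sign. Counts of lower members beyond 1.5 times, and medians beyond the spread or of the other sign, came in 5 cases, all on leaving out 1 animal; 37 counts at an unadjusted p under 0.05 also moved, as in the brain mean (1 to 12 on leaving out 1 animal, 14 without the hemoglobin-rich libraries). In prefrontal cortex the number lower ranged from 34 (without C2) to 68, and the median from -0.048 to 0.012, being 0.012 without C2 and 0.0095 without S8. In blood the number lower ranged from 13 (without C2; 14 without C4) to 33, and the median from 0.052 to 0.11. It stayed on one side in hippocampus (47 to 77 lower, median -0.041 to -0.0050), hypothalamus (69 to 79; -0.061 to -0.031) and the brain mean (57 to 76; -0.039 to -0.016). Replicate numbers did not pair the samples: same-numbered libraries had r from -0.45 to 0.55. With a replicate block 57, 56, 74 and 25 members were lower in prefrontal cortex, hippocampus, hypothalamus and blood, and 3, 1, 3 and 5 had an unadjusted p under 0.05. For most of these alternatives the share of all genes at that threshold is not given here. The causes were not tested. Depth is unknown, so what it limits cannot be stated; 7 to 9 animals per group limit the precision.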
